A study of Rattus norvegicus with 6 samples.

Results

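The 10 chemokine ligand genes examined here were Ccl2, Ccl7, Ccl20, Cxcl1, Cxcl2, Cxcl10, Cxcl12, Cxcl14, Cxcl16 and Cx3cl1, picked by name from the 25689 genes of a table of read counts. All 10 had a row, and 9 of them had enough reads to be tested among 14919 genes. The RNA came from sensory neurons of lumbar dorsal root ganglia (DRGs) L1-L2, isolated from spontaneously hypertensive rats (SHRs), a strain that develops high blood pressure. In 3 samples the perirenal adipose tissue had been removed surgically on both sides 4 weeks earlier (perirenal adipose tissue ablation, PRATA), and 3 samples came from sham-operated SHRs. All 6 were labelled wild type, with an age of 6 to 8 weeks (the methods give an older age at purchase), and all cells had been digested out of the ganglia and parted from glia by adhesion in a short culture. The samples carry replicate numbers, but nothing says how many animals each holds, so p-values measure the spread between these samples, which may in part be technical.

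Chemokines are small secreted proteins that draw leukocytes along a gradient through G protein-coupled receptors, and they are named CC, CXC or CX3C by the spacing of their first cysteines. Ccl2 and Ccl7 attract monocytes, Ccl20 attracts cells bearing Ccr6, Cxcl1 and Cxcl2 attract neutrophils through Cxcr2, and Cxcl10 is an interferon-induced ligand of Cxcr3. Cxcl12, the ligand of Cxcr4, and Cxcl14 are largely constitutive, whereas Cxcl16 and Cx3cl1 are made as membrane-anchored proteins that proteases release. In sensory ganglia, neurons, satellite glia and resident macrophages can all make chemokines, which also sensitize neurons after nerve injury.

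The inducible members are known targets of NF-kB, and Cxcl10 also of the interferon-activated factors that bind the interferon-stimulated response element (ISRE). Their promoters are shown because Cxcl1 and Cxcl2 were each other's nearest member in pattern over the samples, while Cxcl10 stood apart from both. RefSeq sequences (GRCr8) of the 250 bases before the start were found for 9 of the 10 genes, all but Ccl2. They were searched on both strands for the NF-kB consensus, the ISRE (TTTCNNTTTC), AP-1 (TGANTCA, which reads the same on both strands) and the TATA box (TATAAA). The windows of Cxcl1 (chr14:17479322-17479571, minus strand), Cxcl2 (chr14:17467256-17467505, minus strand), Cxcl10 (chr14:15988816-15989065, plus strand) and Ccl7 (chr10:67513845-67514094, plus strand, with a TATA box and no NF-kB match) read 5′ to 3′, with NF-kB, ISRE and TATA matches in capitals:
Cxcl1: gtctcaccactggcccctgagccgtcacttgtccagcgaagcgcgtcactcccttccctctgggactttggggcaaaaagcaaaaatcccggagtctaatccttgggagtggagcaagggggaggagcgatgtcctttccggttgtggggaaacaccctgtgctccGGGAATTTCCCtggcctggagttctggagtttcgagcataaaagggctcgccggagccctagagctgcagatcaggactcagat
Cxcl2: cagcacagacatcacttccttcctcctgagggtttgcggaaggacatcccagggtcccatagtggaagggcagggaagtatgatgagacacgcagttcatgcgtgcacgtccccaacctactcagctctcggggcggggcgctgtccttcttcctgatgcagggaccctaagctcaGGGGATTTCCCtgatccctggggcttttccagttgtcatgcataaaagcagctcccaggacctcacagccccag
Cxcl10: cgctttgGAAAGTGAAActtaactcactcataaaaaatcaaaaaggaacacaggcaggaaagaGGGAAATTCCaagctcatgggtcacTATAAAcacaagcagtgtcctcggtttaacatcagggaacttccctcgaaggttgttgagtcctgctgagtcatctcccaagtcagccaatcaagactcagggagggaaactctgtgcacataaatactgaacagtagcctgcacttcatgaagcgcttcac
Ccl7: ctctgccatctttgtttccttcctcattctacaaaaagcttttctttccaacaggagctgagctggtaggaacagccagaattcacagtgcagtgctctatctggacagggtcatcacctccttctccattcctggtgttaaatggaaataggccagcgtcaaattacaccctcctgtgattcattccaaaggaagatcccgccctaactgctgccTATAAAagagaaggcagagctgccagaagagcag

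The NF-kB consensus was found in the windows of 4 of the 9 genes, namely Ccl20, Cxcl1, Cxcl2 and Cxcl10, beside 3.54% of 33469 RefSeq promoters of the same length. In Cxcl1 overlapping matches on both strands covered bases 84 to 74 before the start, and in Cxcl2 bases 74 to 64. Cxcl10 held its NF-kB match at bases 187 to 178 and was the member with an ISRE, at bases 243 to 234 on the minus strand, beside 3.41% of all promoters. AP-1 letters were found in Ccl7, Cxcl10 and Cxcl14 (6.34% of all promoters), and TATAAA in Ccl7, Cxcl10 and Cx3cl1 (12.9%). The TATAAA letters lay at bases 34 to 29 before the start in Ccl7, but farther out in Cx3cl1 (78 to 73) and Cxcl10 (162 to 157). These matches describe the letters and do not show that a factor bound there. On GRCr8, Ccl2 and Ccl7 are neighbours on chromosome 10, Cxcl2 and Cxcl1 are neighbours on chromosome 14, and Cxcl10 lies between Cxcl11 and Cxcl9, the other ligands of Cxcr3.

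Totals ranged from 5892967 counts (sham replicate 2) to 15226952 counts (sham replicate 1). Levels are given as CPM (counts scaled to a common library size) after TMM scaling, on which a floor of 3 counts is 0.207 to 0.468 CPM. The 7SL RNA reads set a pair of libraries apart: Rn7sl1 took 98.9% of the reads of the 2 main 7SL genes in PRATA replicate 3 and 99.5% in sham replicate 1, and 47.3% to 49.3% in the other 4 libraries. The fold change of each member tested is therefore also given for those 4 libraries alone. All 22 sensory neuron markers were detected, and 21 of them were higher after PRATA by sign. Their summed level was 15702 to 23696 CPM after PRATA and 11354 to 17039 CPM after sham. Markers of satellite glia were present as well, at a sum of 3354 to 6370 CPM after PRATA and 4485 to 8728 CPM after sham. Apoe alone gave 2779 to 5229 CPM and 3708 to 7473 CPM of these sums. Schwann cell markers summed to 913 to 1602 CPM after PRATA and 693 to 909 CPM after sham. All 10 tested Schwann cell markers were higher after PRATA by sign, and 6 lay wholly higher, beside 11.6% of all genes. Fibroblast markers were found too, and their sums are given below.

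Of the 9 members tested, Cxcl10 was the member past an unadjusted p of 0.05 and a 2-fold change (edgeR's quasi-likelihood test), and it was higher after PRATA, beside 1.17% of all genes tested in that direction. None was lower past both thresholds, beside 3.23% of all genes. At an unadjusted p under 0.05 alone, Ccl7 and Cxcl16 were lower (10.1% of all genes) and Cxcl10 was higher (8.19%). With Benjamini-Hochberg adjustment no gene of the table passed 0.05 by edgeR (0.00%), beside 2734 genes at an unadjusted p under 0.05. DESeq2 called 728 genes and limma voom with sample weights 1173, and none of these was a member. The groups overlapped for every member tested, whereas 11.2% of all genes lay wholly lower and 11.6% wholly higher after PRATA. By sign 5 members were lower and 4 higher, and their median log2 fold change was -0.06, beside 0.03 over all genes tested.

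**Figure D1:**
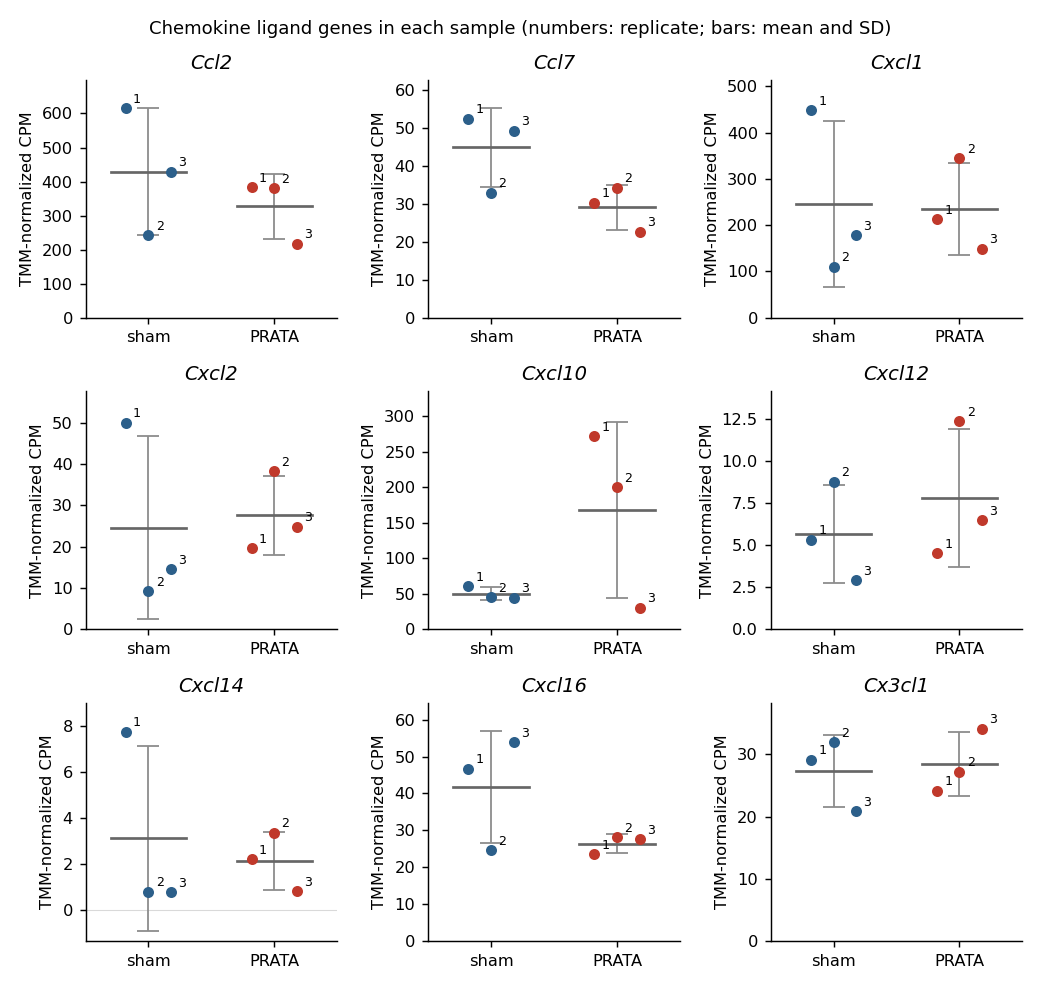
Level of each tested chemokine ligand gene in TMM-normalized CPM (vertical axes, linear) in the sham and PRATA samples, with a point and replicate number for each sample and the mean and SD in grey (n = 3 per group). Cxcl10 lay at 200.1 and 273 CPM in PRATA replicates 2 and 1 and at 30.8 CPM in PRATA replicate 3, below all sham samples.

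Cxcl10 measured 273, 200.1 and 30.8 CPM in PRATA replicates 1, 2 and 3, against 60.5, 45.4 and 44.9 CPM in sham replicates 1, 2 and 3. The sham samples lay close together, while PRATA replicates 1 and 2 lay above all of them and PRATA replicate 3 below all of them. The means were 168 ± 124 CPM after PRATA and 50.3 ± 8.89 CPM after sham (SD, n = 3 each), a log2 fold change of 1.74 with an SE of 0.64 (95% interval 0.27 to 3.20). The unadjusted p was 0.0259 and the adjusted p 0.225 by edgeR, and an exact two-sided permutation test of the CPM gave p = 0.4, where 3 against 3 cannot go below 0.1. These reads rest on 2112, 2511 and 389 counts after PRATA and 876, 291 and 475 counts after sham, so counting error is small beside the spread between the PRATA samples. Without both libraries set apart by 7SL RNA, the log2 fold change was 2.38 with an adjusted p of 0.0312 by edgeR. The pair left out went the other way, at 30.8 CPM in PRATA replicate 3 and 60.5 CPM in sham replicate 1. Without PRATA replicate 1 the log2 fold change was 1.20, and it was then not past the thresholds (unadjusted p = 0.109, edgeR), nor without PRATA replicate 2 (1.59), sham replicate 2 (1.67) or sham replicate 3 (1.67). With a replicate block in the fit, the value was 1.32 (unadjusted p = 0.0620, adjusted p = 0.490, edgeR). In such bulk RNA, fewer cells of a type and less RNA per cell cannot be told apart. The summed macrophage markers, cells that can be a source of Cxcl10, measured 78.2, 231 and 201 CPM after PRATA and 163, 86.6 and 73.0 CPM after sham. Lyz2 alone gave 45.3, 139 and 78.3 CPM of these sums after PRATA and 59.2, 35.3 and 24.3 CPM after sham. Single markers ordered the samples in different ways: Ptprc was highest in PRATA replicate 3 and Adgre1 in sham replicate 3. The part of macrophages in the values of Cxcl10 was not tested.

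The other Cxcr3 ligands are induced by interferon as well. Cxcl9 measured 14.2, 14.6 and 6.64 CPM after PRATA and 3.73, 11.1 and 6.42 CPM after sham, a log2 fold change of 0.76 (unadjusted p = 0.129, adjusted p = 0.397, edgeR). Cxcl11, named after its values were seen, measured 18.1, 9.80 and 3.64 CPM after PRATA and 6.15, 5.93 and 5.76 CPM after sham, a log2 fold change of 0.80 (unadjusted p = 0.146, adjusted p = 0.419, edgeR). As with Cxcl10, PRATA replicates 1 and 2 lay above and PRATA replicate 3 below all sham samples for Cxcl11, but not for Cxcl9. Cxcr3, their receptor, was at 0.316 to 0.558 CPM after PRATA and 0.0945 to 0.207 CPM after sham and was too low to be tested.

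Among 27 interferon-stimulated genes, all tested, 7 were higher past both thresholds (Irf1, Irf7, Ifit1, Ifit2, Ifit3, Mx1 and Mx2) and Gbp2 was lower, beside 1.17% and 3.23% of all genes. At an unadjusted p under 0.05 alone 10 were higher and 1 lower (8.19% and 10.1% of all genes), and 24 of 27 were higher by sign, with a median log2 fold change of 0.79. Irf1, a transcription factor of the interferon response, measured 102, 116 and 41.4 CPM after PRATA and 41.3, 19.0 and 23.4 CPM after sham (log2 fold change 1.62, adjusted p = 0.168, edgeR). The groups of Irf1 did not overlap, but PRATA replicate 3 and sham replicate 1 were almost level. Of the 27 genes, 3 lay wholly higher and 1 wholly lower after PRATA, beside 11.6% and 11.2% of all genes. Stat2, a subunit of the complex that binds the ISRE, had a log2 fold change of 0.68, and Gbp2, an interferon-induced GTPase, of -1.59 (adjusted p = 0.175 and 0.156, edgeR). PRATA replicate 1 lay above every sham sample for 21 of these 27 genes and PRATA replicate 2 for 23. PRATA replicate 3 did so for 3, and it lay below every sham sample for 14. The same positions were not counted over all genes tested, so these counts describe the listed genes only. The count higher past both thresholds was 16 without PRATA replicate 3, 4 without PRATA replicate 2 and 2 without PRATA replicate 1. Of all genes, 1.75%, 1.07% and 0.748% passed in that direction in these fits. In the 4 libraries alone the count was 17, where 2.84% of all genes passed in that direction.

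The likeness of patterns was measured as the root mean square difference of log2(CPM + 0.5), each gene centred on its mean over the 6 samples. Cxcl10, examined in this way after its values were seen, was nearest to Ifit3 among 14667 genes, at 0.140, followed by Oas1g at 0.187 and Apol9a at 0.189. Ifit3, an interferon-induced antiviral gene, measured 223, 219 and 30.6 CPM after PRATA and 52.3, 40.4 and 39.6 CPM after sham, with PRATA replicate 3 again lowest. Of the 27 interferon-stimulated genes, 3 were among the 10 genes nearest to Cxcl10 and 15 among the 100 nearest. By this measure Cxcl10 stood far from all other members, at 1.06 from Cxcl1 and up to 1.41 from Cxcl16. The measure takes in the size of a gene's spread as well as the order of its samples. Cxcl10 had a wide spread, with a highest sample 8.86 times the lowest.

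**Figure D2:**
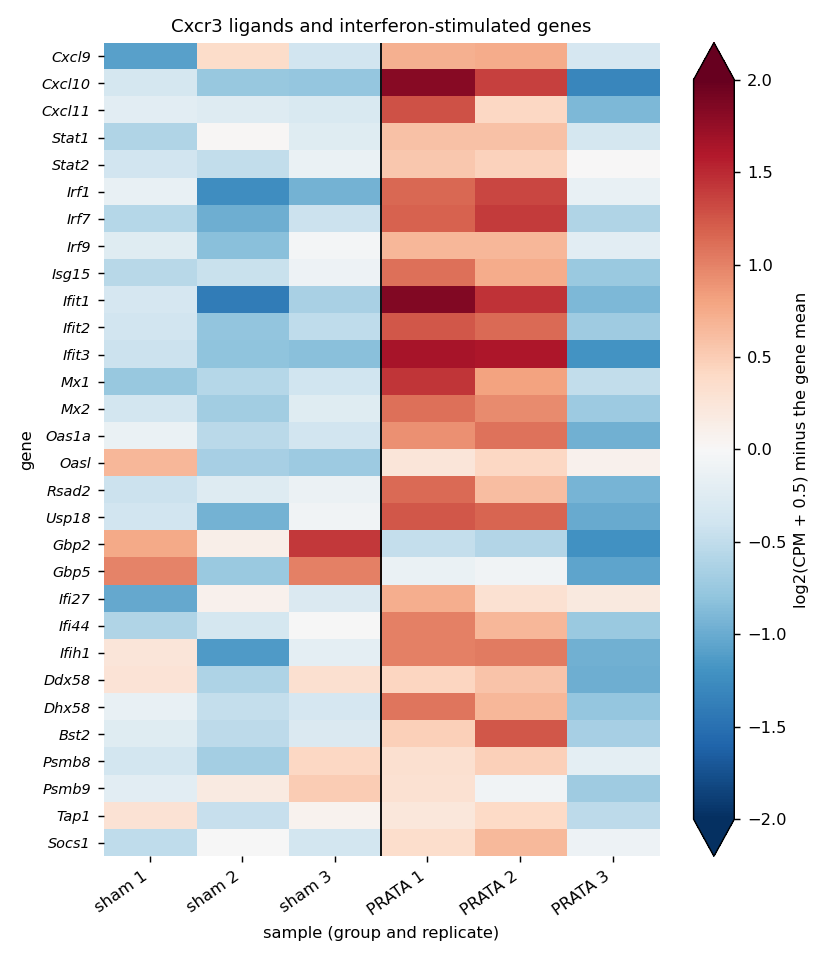
Centred levels of Cxcl9, Cxcl10, Cxcl11 and the 27 interferon-stimulated genes (rows) in the 6 samples (columns), coloured by log2(CPM + 0.5) minus the gene's mean. Most rows are red in PRATA replicates 1 and 2 and blue in PRATA replicate 3, and Gbp2 and Gbp5 are red in sham replicates 1 and 3.

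Ccl2, the main monocyte attractant, measured 384, 379.8 and 217 CPM after PRATA and 616, 242 and 429 CPM after sham. Sham replicate 1 was highest and PRATA replicate 3 lowest, and sham replicate 2 lay within the PRATA range. The means were 327 ± 94.9 and 429 ± 187 CPM (SD, n = 3 each), a log2 fold change of -0.39 with an SE of 0.37 (95% interval -1.23 to 0.45, adjusted p = 0.597, edgeR). In the 4 libraries alone the value was 0.17, the opposite sign.

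Ccl7, its neighbour and a monocyte attractant as well, measured 30.3, 34.2 and 22.7 CPM after PRATA and 52.4, 32.9 and 49.2 CPM after sham. Sham replicates 1 and 3 lay above all other samples, and the groups overlapped through sham replicate 2. The log2 fold change was -0.63 with an SE of 0.24 (unadjusted p = 0.0301, adjusted p = 0.232, edgeR), and the exact permutation test gave p = 0.2. The unadjusted p passed 0.05 no longer without PRATA replicate 1 (-0.68), PRATA replicate 3 (-0.48), sham replicate 1 (-0.52) or sham replicate 3 (-0.55), nor in the 4 libraries alone (-0.36). Ccl2 had 12.7, 11.1 and 9.58 counts per Ccl7 count after PRATA and 11.7, 7.36 and 8.71 after sham, ranges that overlap.

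Cxcl16, a ligand of Cxcr6 that is shed from the membrane by Adam10 and Adam17, measured 23.5, 28.1 and 27.6 CPM after PRATA and 46.7, 24.7 and 53.9 CPM after sham. As with Ccl7, sham replicates 1 and 3 were high and sham replicate 2 lay among the PRATA samples. The means were 26.4 ± 2.51 and 41.8 ± 15.3 CPM (SD, n = 3 each), a log2 fold change of -0.67 with an SE of 0.28 (unadjusted p = 0.0453, adjusted p = 0.264, edgeR; exact permutation p = 0.3). Leaving out any library other than sham replicate 2 took the unadjusted p above 0.05 (log2 fold change -0.44 without sham replicate 3), whereas without sham replicate 2 the log2 fold change was -0.93 with an adjusted p of 0.0383 by edgeR. The value in the 4 libraries alone was -0.63 (adjusted p = 0.533, edgeR). The summed satellite glia markers were likewise highest in sham replicates 3 and 1, at 8728 and 7624 CPM, against 3354 to 6370 CPM in the other 4 samples. Apoe alone gave 7473 and 6283 CPM of those sums, and 2779 to 5229 CPM in the other 4 samples. S100b and Erbb3 were highest in PRATA replicate 2, the other markers in sham replicate 1 or 3. PRATA replicate 2 was second for Fabp7, Kcnj10, Glul, Cadm2 and Slc1a3. By sign, 10 of these 11 markers were lower after PRATA. The part of satellite glia in the values of Ccl7 and Cxcl16 was not tested.

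Cxcl1, a neutrophil attractant, measured 213, 344 and 149 CPM after PRATA and 448, 111 and 179 CPM after sham. Its paralog Cxcl2 measured 19.6, 38.2 and 24.8 CPM after PRATA and 49.95, 9.21 and 14.6 CPM after sham. For both genes sham replicate 1 was the highest of all samples and sham replicate 2 the lowest, so that the sham range enclosed the PRATA range. The log2 fold changes were -0.06 for Cxcl1 (95% interval -1.24 to 1.11) and 0.15 for Cxcl2 (95% interval -1.16 to 1.46), with adjusted p values of 0.961 and 0.912 by edgeR. In the 4 libraries alone they were 0.94 for Cxcl1 (unadjusted p = 0.0278, adjusted p = 0.319, edgeR) and 1.27 for Cxcl2 (unadjusted p = 0.0124, adjusted p = 0.260, edgeR). Sham replicate 1 accounted for most of that shift in Cxcl2, which stood at 1.19 without it alone and at 0.22 without PRATA replicate 3 alone.

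Cxcl1 and Cxcl2 were each other's nearest member in pattern, at 0.339, although Cxcl2 ranked 185 for Cxcl1 among 14667 genes. Cxcl1 had 10.9, 9.0 and 6.00 counts per Cxcl2 count after PRATA and 8.97, 12.0 and 12.3 after sham. Reads of these paralogs may be shared between them and with Cxcl3, since how multi-mapped reads were counted is not given. Cxcl3, named after its values were seen, measured 7.75, 15.5 and 31.0 CPM after PRATA and 67.1, 10.6 and 37.8 CPM after sham (log2 fold change -1.09, adjusted p = 0.406, edgeR). Like them it was highest in sham replicate 1, but its lowest sample was PRATA replicate 1. Cxcr2, the receptor of all these ligands, was at 0.567 CPM or lower in every sample. The genes of the table nearest to Cxcl1 were Nedd9, an adhesion scaffold, at 0.099, Sipa1l2 at 0.181 and AABR07025295.1 at 0.183. Those nearest to Ccl2 were AABR07051947.1 at 0.044, AABR07012775.1 at 0.081 and Tnip2, an inhibitor of NF-kB signalling, at 0.086, while Ccl7 ranked 267 for Ccl2 at 0.268. Ccl7 was nearest to Cxcl16 among the members, at 0.255.

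**Figure D3:**
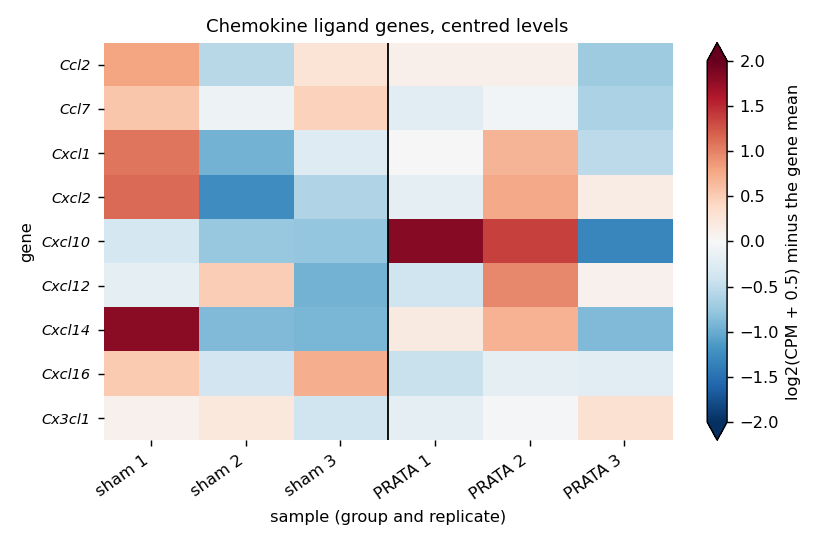
Centred levels of the 9 tested members (rows) in the 6 samples (columns), coloured by log2(CPM + 0.5) minus the gene's mean. Ccl2, Ccl7, Cxcl1, Cxcl2, Cxcl14 and Cxcl16 are red in sham replicate 1, whereas Cxcl10 is red in PRATA replicates 1 and 2 and blue in the other 4 samples.

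Cxcl12, which retains and guides cells through Cxcr4, measured 4.52, 12.4 and 6.48 CPM after PRATA and 5.32, 8.74 and 2.93 CPM after sham. The highest sample was a PRATA sample and the lowest a sham sample, with the other 4 interleaved. The log2 fold change was 0.49 with an SE of 0.49 (95% interval -0.63 to 1.60, adjusted p = 0.622, edgeR), and in the 4 libraries alone it was 0.59. Cxcr4 measured 4.13, 9.48 and 28.8 CPM after PRATA and 14.2, 22.2 and 3.97 CPM after sham, and Ackr3, the scavenger receptor of Cxcl12, 5.03 to 11.8 CPM and 3.31 to 12.2 CPM. The groups overlapped for both receptors.

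Cxcl14 rested on few reads, 17, 42 and 10 counts after PRATA and 112, 5 and 8 counts after sham. Sham replicate 1, at 7.74 CPM, was far above sham replicates 2 and 3, at 0.780 and 0.756 CPM, and the PRATA samples lay between at 0.791 to 3.35 CPM. The log2 fold change was -0.60 with an SE of 0.93, the widest interval of the members (-2.74 to 1.53, adjusted p = 0.761, edgeR). Its sign rested on sham replicate 1, without which it was 1.43, and it was 1.84 in the 4 libraries alone.

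Cx3cl1, the fractalkine of neurons, measured 24.1, 27.3 and 34.2 CPM after PRATA and 29.2, 32.0 and 20.9 CPM after sham. It varied least of the members tested, with a highest sample 1.64 times the lowest, beside 8.86 times for Cxcl10 and 10.2 times for Cxcl14. The means were 28.5 ± 5.13 and 27.3 ± 5.78 CPM (SD, n = 3 each), a log2 fold change of 0.06 (95% interval -0.45 to 0.57, adjusted p = 0.904, edgeR), and -0.037 in the 4 libraries alone. A change of 2-fold in either direction thus lay outside its interval. Adam17, which sheds both Cx3cl1 and Cxcl16, measured 55.1, 61.6 and 49.4 CPM after PRATA and 111, 59.2 and 138 CPM after sham (log2 fold change -0.89, unadjusted p = 0.0157, adjusted p = 0.197, edgeR). Adam10, the other sheddase of both, had a log2 fold change of 0.14 (unadjusted p = 0.491, edgeR) and is named here after its values were seen. Cx3cr1, the receptor on macrophages, was too low to be tested, at 0.645 to 1.35 CPM after PRATA and 0 to 2.50 CPM after sham.

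Ccl20 had 1 count in PRATA replicate 3, 1 count in sham replicate 2 and 0 in the other 4 samples. Every sample was thus under the floor of 3 counts, so a difference was not detectable at this depth and no fold is given.

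**Figure D4:**
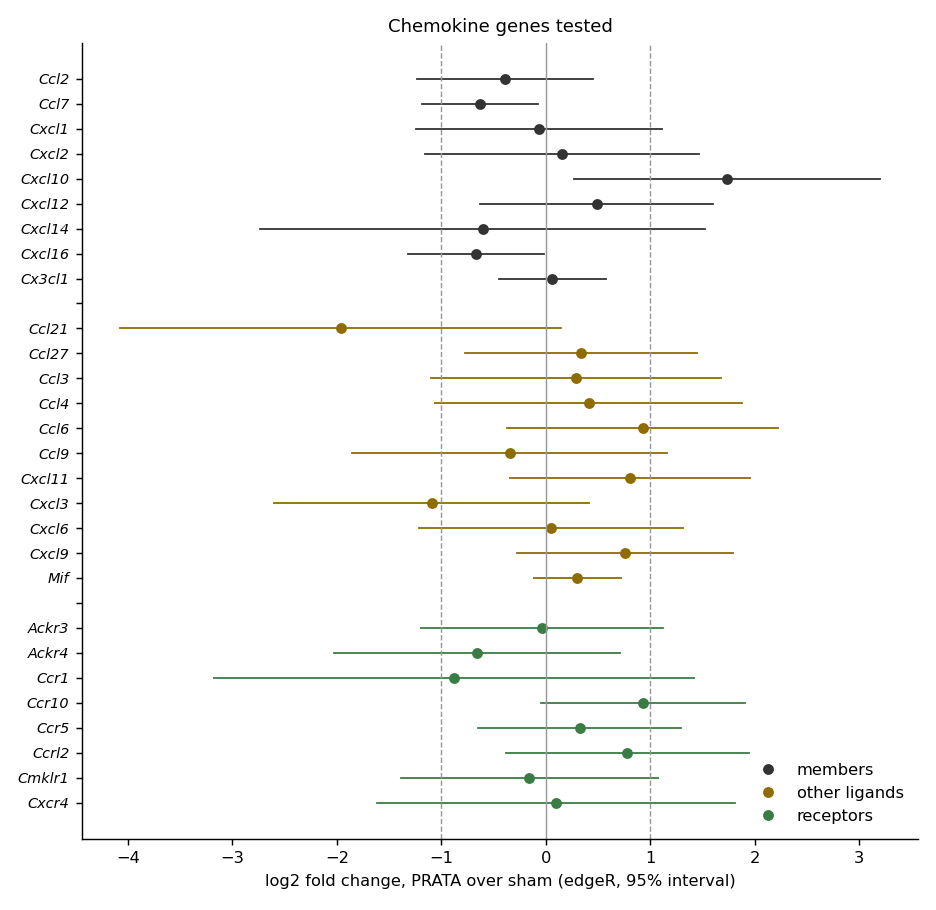
Log2 fold change of PRATA over sham (horizontal axis) with its 95% interval for the 9 tested members, 11 other chemokine ligands and 8 chemokine receptors, from edgeR, with dashed lines at a 2-fold change. The interval of Cxcl10 lies wholly above 0, those of Ccl7 and Cxcl16 wholly below, and all others include 0.

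Other genes of the chemokine system gave few calls. Of 27 other chemokine ligands 11 had enough reads (median log2 fold change 0.30). None of them passed an unadjusted p of 0.05, beside 10.1% of all genes lower and 8.19% higher. The smallest p among these ligands was that of Ccl21, a ligand of Ccr7 (adjusted p = 0.301, edgeR). It measured 0.13, 0.08 and 1.03 CPM after PRATA and 1.52, 0.624 and 2.93 CPM after sham. The PRATA values of Ccl21 rest on 1, 1 and 13 counts, so replicates 1 and 2 lay under the floor of 3 counts. Mif, an atypical ligand of Cxcr4, had a log2 fold change of 0.30. Of 22 receptors with a row, 8 were tested and none passed, with Ccr10 (0.93), Ccrl2 (0.78) and Ackr4 (-0.66) having the smallest p values. Ccr2 and Ackr1, listed as well, had no single row under their symbols, so nothing is given for them. Neutrophil markers summed to 0.775 to 20.1 CPM after PRATA and 1.13 to 15.6 CPM after sham, and lymphocyte markers to 5.16 to 11.8 CPM and 3.59 to 7.32 CPM, and no marker of either list was at 0 in all samples.

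Upstream, 25 of 31 listed cytokines, receptors and adaptors that induce chemokines were tested, while Il17a and Ifng had no single row under their symbols. At an unadjusted p under 0.05, 6 were lower and 1 higher (median log2 fold change -0.22), beside 10.1% and 8.19% of all genes. Csf1, the macrophage growth factor, measured 126, 148 and 103 CPM after PRATA and 239, 211 and 202 CPM after sham, groups that did not overlap (log2 fold change -0.80, adjusted p = 0.156, edgeR). Irak4, a kinase below interleukin-1 and Toll-like receptors, had a log2 fold change of -0.85, and Il1rap, the shared interleukin-1 receptor subunit, of -1.32. Il1rap was past both thresholds, as was Il1a, which was higher. Of 27 NF-kB pathway genes, 3 were lower and none higher at that p (median -0.26), a share near the 10.1% of all genes lower: Vcam1, an adhesion molecule for leukocytes, at -0.69, the kinase gene Chuk at -0.49 and the prostaglandin synthase gene Ptgs2 at -0.72. In the 4 libraries alone 6 of the NF-kB pathway genes were higher and none lower at that p, and 4 of the inducing genes were higher and 3 lower. Leaving out sham replicate 1 alone turned both counts, to 2 lower and 4 higher for the NF-kB pathway and 3 lower and 4 higher for the inducing genes. Without PRATA replicate 3 alone no NF-kB pathway gene passed in either direction and the inducing genes stood at 4 lower and 3 higher. Without sham replicate 2 the NF-kB count was 11 lower, and without sham replicate 3 it was 0. The share over all genes moved as well. With all 6 samples 2734 of 14919 genes passed that p in either direction, and in the 4 libraries 1907 of 14808. Without sham replicate 2 the figure was 4254 of 15438, and without sham replicate 3 it was 1471 of 15758.

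Of 12 tested proteases that cleave chemokines, 5 were lower and none higher at an unadjusted p under 0.05 (median log2 fold change -0.83), beside 10.1% of all genes lower. Of these 4 passed both thresholds (3.23% of all genes), namely Mmp3, Mmp9, Mmp13 and Mmp14. Mmp3, a stromelysin that trims CC chemokines, measured 0.13, 0.558 and 0.316 CPM after PRATA and 3.25, 3.59 and 6.23 CPM after sham, the latter all above the former (log2 fold change -3.59, adjusted p = 0.156, edgeR). Its PRATA values rest on 1, 7 and 4 counts, with replicate 1 under the floor of 3 counts, so the size of this fold is poorly fixed. Mmp14, a membrane-bound protease, had a log2 fold change of -1.19. Of 12 factors that set the decay of chemokine mRNAs, 3 were lower and none higher (median -0.22), again beside 10.1% of all genes lower, with Zc3h12c at -0.80, Elavl1 at -0.60 and Hnrnpd at -0.68. In the 4 libraries alone 5 proteases were again lower and none higher, while 4 decay factors were higher and none lower. Without sham replicate 3 the protease count was 2, where 1471 of 15758 genes passed that p in either direction. In the 4 libraries 1907 of 14808 genes did. Fibroblast markers, cells that make many of these proteases, summed to 393 to 2154 CPM after PRATA and 985 to 2043 CPM after sham, and their part in these values was not tested.

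**Figure D5:**
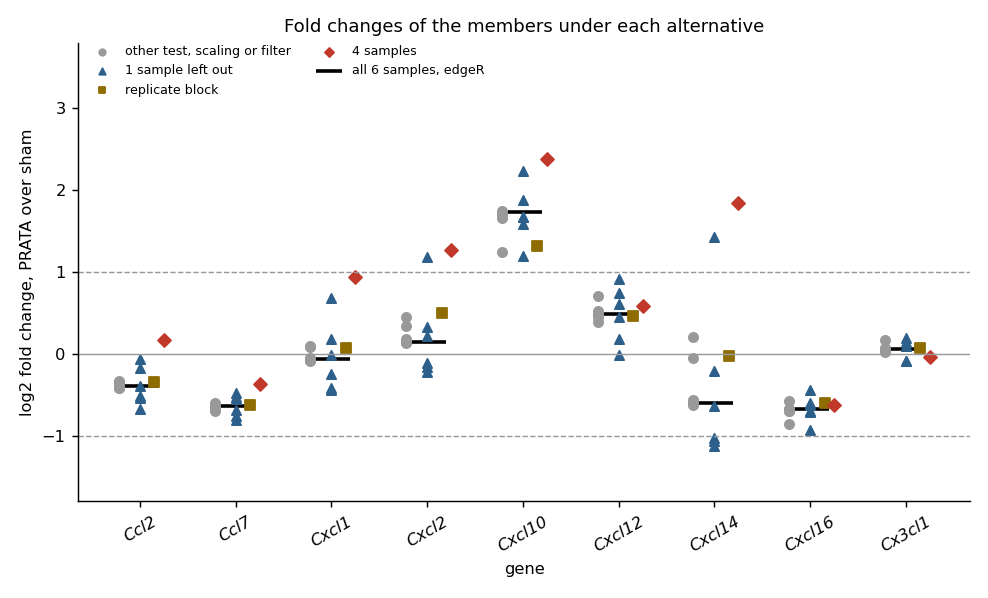
Log2 fold change of PRATA over sham (vertical axis) for each tested member (horizontal axis) with all 6 samples by edgeR (black line) and under each alternative (points). Cxcl10 stays above 0 and Ccl7 and Cxcl16 below 0 throughout, while Cxcl1, Cxcl2, Cxcl12, Cxcl14, Ccl2 and Cx3cl1 fall on both sides.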

How the data were processed

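Total RNA of isolated DRG neurons was sequenced paired-end after ribosomal cDNA cleavage with a stranded kit. The authors deposited raw counts per gene. The paper names HISAT2, StringTie and Cuffdiff, and the submitters' processing notes name STAR 2.7.3a, RSEM and DESeq2 with no role. Build, annotation, strand setting, treatment of reads that map to several places and any rounding of RSEM estimates are not given in the sources used here. Rows were matched by gene symbol, and all 6 columns of sample values were used.

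Counts were analysed with edgeR 4.0.16 in R 4.3.3 (filterByExpr with minimum count 10 and minimum total 15, TMM factors 0.953 to 1.10, quasi-likelihood test, two-sided, no covariate, Benjamini-Hochberg over 14919 genes). Thresholds were an unadjusted p of 0.05 with an absolute log2 fold change of 1, and an adjusted p of 0.05. The script was tested on simulated data. CPM of members also went through an exact permutation test over samples. DESeq2 1.42.0, limma 3.58.1 (trend with a pseudocount of 1, and voom), other scalings and filters, leaving out samples and a replicate block were alternatives. Figures used matplotlib 3.10.9. Counting intervals and floors cover counting error only, since the reads carry no molecular identifiers.

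The members and all gene lists were chosen with earlier results of these data known. Named were all members, and of each other list up to 3 tested genes with the smallest p, beside genes that passed both thresholds. The nearest genes were given for the 2 members with the most counts, with a mean CPM of at least 1. No transcript lengths were used, so levels of different genes were not compared. Of the marker lists, 10 Schwann cell markers were tested and 4 were higher at an unadjusted p under 0.05. Of 22 sensory neuron markers 6 were higher at that p and 1, Ntrk2, was lower. Lyz2 of 15 macrophage and Vwf of 9 endothelial markers were higher, and Sox10 of 11 satellite glia markers was lower. Over all genes tested, 8.19% were higher and 10.1% lower at that p. None of 9 pericyte or 9 fibroblast markers passed.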

Additional observations from a re-analysis of the deposited data

How the results depend on the processing

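Of 134 fold changes of single members under the alternatives, 17 had the opposite sign. In the 4 libraries without the pair set apart by 7SL RNA, Ccl2 was at 0.17, Cx3cl1 at -0.037, Cxcl1 at 0.94 and Cxcl14 at 1.84, the members' median was 0.59, 3 members were higher past both thresholds, and 421 genes of the table and 17 interferon-stimulated genes were. Cxcl1 was at 0.10 under limma-trend and 0.086 under voom, and Cxcl14 at 0.21 under voom. Under limma-trend 84 genes were higher and 253 lower past both thresholds and no member was higher (0), under voom 340 genes were higher, again with 0 members, and 2 interferon-stimulated genes were lower. Without a filter on low counts 1159 genes were lower.

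Leaving out each library in turn gave log2 fold changes of -0.44 to 0.69 for Cxcl1, -0.22 to 1.19 for Cxcl2, -0.015 to 0.92 for Cxcl12, -1.12 to 1.43 for Cxcl14, and -0.091 to 0.19 for Cx3cl1, and a members' median of -0.44 to 0.45. The count of members higher past both thresholds then ranged from 0 to 2, of all genes higher from 101 to 361, of interferon-stimulated genes higher from 2 to 16 and lower from 1 to 2. The cause of these shifts was not tested, beyond the fewer samples of each fit. Ccl7 and Cxcl16 kept a negative sign and Cxcl10 a positive sign under all 15 alternatives, with adjusted p values of 0.0635 to 0.630, 0.0383 to 0.650 and 0.0312 to 0.587.

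Same-numbered samples did not deviate together, with correlations of -0.35, -0.05 and -0.35. With 3 samples per group this cannot show whether they were handled together, and the labels do not say. With the replicate block, Cxcl1 was at 0.075, 0 members were higher past both thresholds and 0 had an unadjusted p under 0.05, and 1528 genes of the table passed that p in place of 2734 (edgeR). Among the other lists, at an unadjusted p under 0.05, NF-kB pathway genes numbered 0 lower and 6 higher in the 4 libraries alone and 8 lower under voom, and with the replicate block 1 lower. Decay factors numbered 0 lower and 4 higher in the 4 libraries and 1 higher under voom, proteases 3 lower with 10 counts in every sample, inducing genes 3 lower and 4 higher in the 4 libraries, and inducing genes higher 0 with the block and with 10 counts in every sample. Limma-trend gave 2 NF-kB genes and 4 inducing genes lower. Receptors and other ligands numbered 0 to 2 in each direction in all fits. Leaving out a library gave 0 to 11 NF-kB genes lower and 0 to 4 higher, 3 to 7 inducing genes lower and 0 to 4 higher, 2 to 6 proteases lower, 1 to 4 decay factors lower and 0 to 2 higher. With a library left out, 1406 to 4254 of all genes tested passed that p in either direction. The figure was 4606 under voom and 1907 in the 4 libraries. Depth limited Ccl20 and Cxcl14 most. The alternatives for the gene lists and the likeness to Cxcl10 were added after the values were seen.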
